A study of Solanum lycopersicum and Solanum tuberosum and Capsicum annuum and Nicotiana tabacum with 10 samples.

Results

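NAC2, STWRKY8 and PR1B are 3 potato genes of stress and defence, and together they held 5 of the 815 cDNA clones with a single gene symbol on a potato microarray, among 15360 clone positions. They were found by symbol in the table that pairs the array's probes with genes, where they are 3 of 430 distinct single symbols. NAC2 (NCBI Gene 102580312) had 1 clone, STWRKY8 (102577688) had 2 and PR1B (102577780) had 2, called clones A and B here. Each clone was printed as 2 spots, so the genes took 10 of 32448 spots. The genes had been chosen from their measured ratios to potato in these same data. Those ratios are therefore given as a description with no test, and tests are kept for differences among the other species. The choice was not made on these differences, though they come from the same ratios.

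The arrays compared leaf RNA of 5 query species with potato (Solanum tuberosum), namely tomato (Solanum lycopersicum), pepper (Capsicum annuum), tobacco (Nicotiana tabacum), Nicotiana benthamiana and petunia (Petunia x hybrida). Untreated plants were kept at 25°C in 16 h of light and 8 h of darkness, and mature leaves were taken at 4 to 6 weeks, with no cultivar stated in the labels. Each query species was labeled with Cy3 on 2 arrays, 10 arrays in all, with potato RNA in Cy5 on every array and no dye swap. All replicate 1 arrays shared 1 potato extract, all replicate 2 arrays shared another, and the labels do not say whether the replicates were separate plants. Each value is the log2 ratio of the 2 channels, averaged over the spots of a clone. A positive value is read as brighter in potato; this direction is likely but not stated, its basis being that the sample titles put potato first and that, with tomato subtracted, the other species' ratios were skewed to positive values in 8 of 8 arrays. That skewness ran from 0.031 to 0.621, so it was next to 0 on some arrays, and all 8 values share the 2 tomato arrays. Because the probes are potato sequences and the samples whole leaves, a lower transcript level in the query species, weaker binding of its transcript to a potato probe, and fewer cells of a type against less RNA per cell cannot be told apart.

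NAC2 belongs to the NAC domain family, plant transcription factors known from stress responses, senescence and development. STWRKY8 is a WRKY transcription factor; proteins of this family bind W-box elements in promoters of defence genes, and in potato STWRKY8 has been tied to the response to the late blight pathogen. PR1B belongs to the pathogenesis-related 1 proteins, small secreted proteins whose transcripts are widely used as markers of salicylic acid responses in leaves. In leaves without infection such genes are usually low and vary with age and growth conditions.

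Of the 15360 clone positions, 10954 had a value on at least 1 array and 7823 on all 10. The number of clones with a value ran from 9279 to 10439 per array, and the arrays' median log2 ratios from -0.0765 to -0.0215. As a check of leaf tissue, PSBR, a photosystem II subunit, had a value for 5 of its 6 clones, although a log ratio holds no level. PSBR leaned to potato by its count of tests, a count not given for NAC2, STWRKY8 and PR1B. In limma 10 of its 14 species tests against potato were called positive and 1 negative (28.1% and 28.9% of such tests over all clones). Its clones did not agree. The 2 with a value on all 10 arrays had mean log2 ratios over the 5 species of 1.62 and -0.13, and a clone with values on 8 arrays had 1.87. The part of PSBR in the ratios of the 3 genes was not tested. No pair of arrays correlated below 0.648 across clones, so none ran against the others in sign.

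NAC2 was brighter in potato on every array. With replicate 1 given first, its log2 ratio was 3.56 on both tomato arrays, 2.94 and 2.69 on the pepper arrays, 3.74 and 3.0 with petunia, 3.19 and 3.25 with tobacco, and 2.12 and 3.06 with N. benthamiana. The lowest and highest values correspond to 4.34-fold and 13.4-fold. The first N. benthamiana array stood lowest and the first petunia array highest. Pepper overlapped N. benthamiana and lay below tomato, tobacco and petunia, while petunia overlapped both tomato and tobacco.

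As a mean over the arrays of a species, NAC2 ordered tomato first with 3.56, then petunia with 3.37 ± 0.52 (SD, n = 2), tobacco with 3.22 ± 0.04, pepper with 2.82 ± 0.18 and N. benthamiana with 2.59 ± 0.67. The SD of 0 in tomato comes from the same pair of rounded spot values in swapped order, 3.47 and 3.64. No 2 neighbours in this order differed past the threshold. The difference between the ends of the order, tomato minus N. benthamiana, was 0.97 (95% interval 0.21 to 1.72, limma adjusted p = 0.0729). With the replicate number, and so the shared potato extract, as a block in the fit, its adjusted p was 0.0342. Of the 10 pairs of species, none passed for NAC2 without the block, against 13.3% of all tests over all clones and pairs. With the block 1 passed, against 28.5%.

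**Figure D1:**
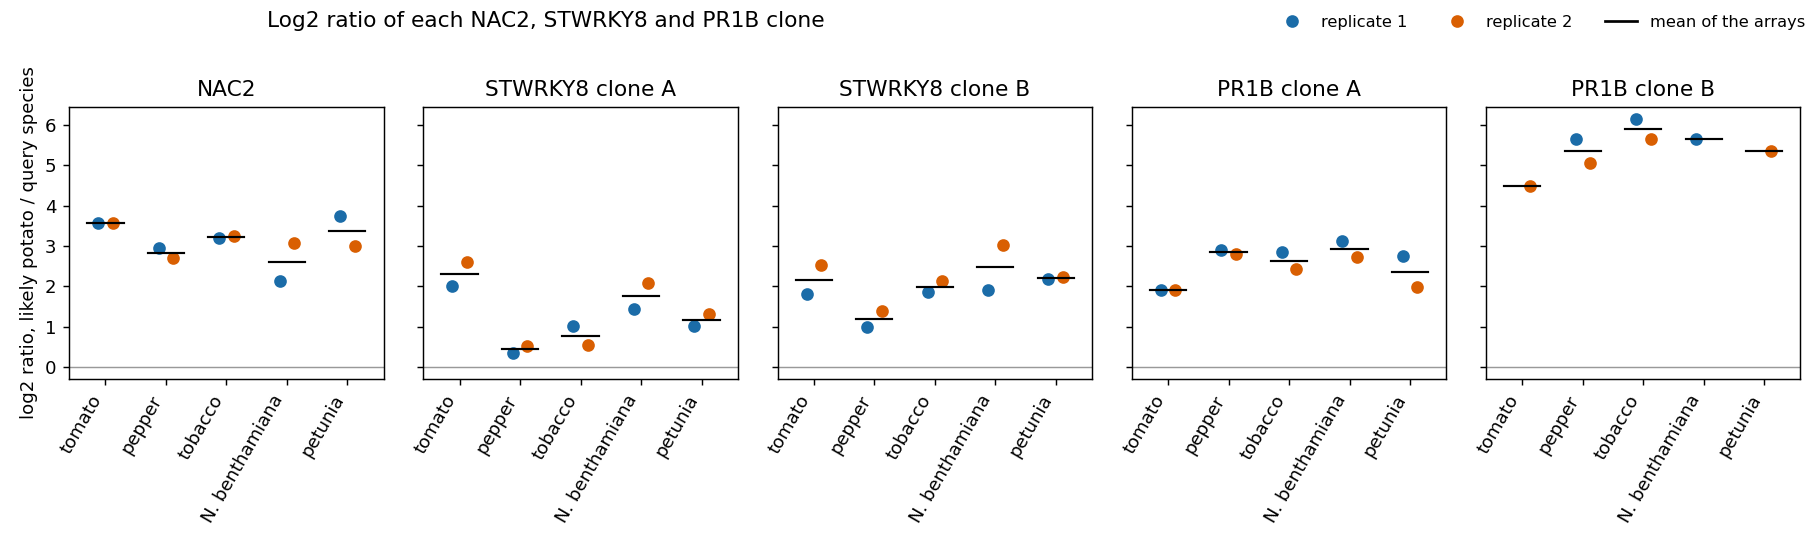
Log2 ratio (likely potato over query species, vertical axis) of the NAC2, STWRKY8 and PR1B clones in the 5 query species. Points are arrays, blue for replicate 1 and orange for replicate 2, and bars are means of the arrays with a value. All points lie above 0, from 0.35 in pepper for STWRKY8 clone A to 6.14 in tobacco for PR1B clone B.

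STWRKY8 was also brighter in potato on every array, less so than NAC2 as a mean of species, and pepper was its lowest species in both clones. Clone A read 2.0 and 2.60 in tomato, 1.43 and 2.09 in N. benthamiana, 1.02 and 1.31 in petunia, 1.01 and 0.54 in tobacco, and 0.35 and 0.52 in pepper. The tomato arrays did not overlap those of pepper, tobacco or petunia, and both pepper arrays lay below every other array of the clone. Clone B read 1.81 and 2.51 in tomato, 1.90 and 3.03 in N. benthamiana, 2.18 and 2.22 in petunia, 1.84 and 2.12 in tobacco, and 0.98 and 1.38 in pepper. Its pepper arrays again lay below all other arrays of the clone. The tomato arrays enclosed those of tobacco and petunia, and N. benthamiana replicate 2 stood highest.

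The clones of STWRKY8 gave unlike sizes for what the table calls 1 gene. Clone B was higher than clone A on 8 of 10 arrays, with a median difference of 0.85 and a range from -0.19 to 1.58 on the log2 scale, and the 2 tomato arrays were the exceptions. Across the 10 arrays their log2 ratios correlated at r = 0.70, a description over arrays that share potato extracts and species. In tomato the clones were close, at 2.30 ± 0.42 for A and 2.16 ± 0.50 for B. In tobacco they stood apart, at 0.77 ± 0.33 and 1.98 ± 0.20.

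PR1B was brighter in potato wherever it was measured, and the sizes from its clones differed widely. Clone A read 3.13 and 2.72 in N. benthamiana, 2.90 and 2.79 in pepper, 2.85 and 2.42 in tobacco, 2.74 and 1.98 in petunia, and 1.90 and 1.92 in tomato. Tomato was lowest, with petunia replicate 2 just above it, and all pepper, tobacco and N. benthamiana arrays stood higher than these without overlap. In fold terms clone A ran from 3.74 to 8.76.

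PR1B clone B had values on 7 arrays, with both spots missing on tomato replicate 1, N. benthamiana replicate 2 and petunia replicate 1. It read 6.14 and 5.64 in tobacco, 5.64 and 5.06 in pepper, and on single arrays 5.64 in N. benthamiana, 5.35 in petunia and 4.48 in tomato. Its lowest value, again in tomato, corresponds to 22.3-fold and its highest, in tobacco, to 70.7-fold. Clone B was higher than clone A on 7 of 7 arrays, by 2.27 to 3.37 on the log2 scale with a median of 2.75. Of all clones, 353 had values on 7 arrays. The authors removed spots that were saturated, too small or not found in 1 channel, and which of these left clone B without a value is not recorded in the deposited values.

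The large ratios of PR1B clone B rest on coarse numbers. Every positive value in the table equals the log2 of a whole hundredth with its sign turned, within 0.0015, so only 99 distinct positive levels occur. The spots of clone B held ratios from 0.01 to 0.05, query over potato by the likely direction. A recorded ratio of 0.02 covers log2 values from 5.32 to 6.06, and 0.01 covers 6.06 to 7.64. The 4.48 of tomato replicate 2 comes from ratios of 0.05 and 0.04, which together cover 4.18 to 4.84. This range lies below the band of the ratio 0.02 seen in pepper, tobacco, N. benthamiana and petunia. It touches the band of the ratio 0.03, 4.84 to 5.32, seen in pepper replicate 2 and in the first spot of petunia replicate 2. For NAC2 the same rounding leaves a spot value uncertain by far less, since its ratios ran from 0.07 to 0.23.

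Among all clones, these ratios were in the upper tail, as the choice of the genes by their ratios already implies. Over the 9784 clones with a value for each species, the mean log2 ratio of the 5 species had a median of -0.03, with the middle 90% from -1.20 to 1.85. STWRKY8 clone A stood at 1.29, with 1014 clones above it, and STWRKY8 clone B at 2.0, with 399 above. PR1B clone A stood at 2.53 with 215 clones above it, NAC2 at 3.11 with 120 above, and PR1B clone B at 5.34 with 3 above. The 740 clones with a single symbol had a median of 0.34, and 12 of them were above NAC2.

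A log2 ratio above 1, at least 2-fold, on both arrays of a species was reached in tomato by 4 of the 4 clones with both values, against 11.8% of all clones. N. benthamiana (12.7% of all clones) and petunia (12.6%) likewise had 4 of 4, while tobacco (12.6%) had 4 of 5 and pepper (11.5%) 3 of 5. On all 10 arrays NAC2 and PR1B clone A were above 1, 2 of 4 clones, against 4.86% of all clones. These counts repeat what the genes were chosen on and carry no further weight. STWRKY8 clone A missed the level in pepper and tobacco, and STWRKY8 clone B missed it in pepper through 1 array at 0.98.

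**Figure D2:**
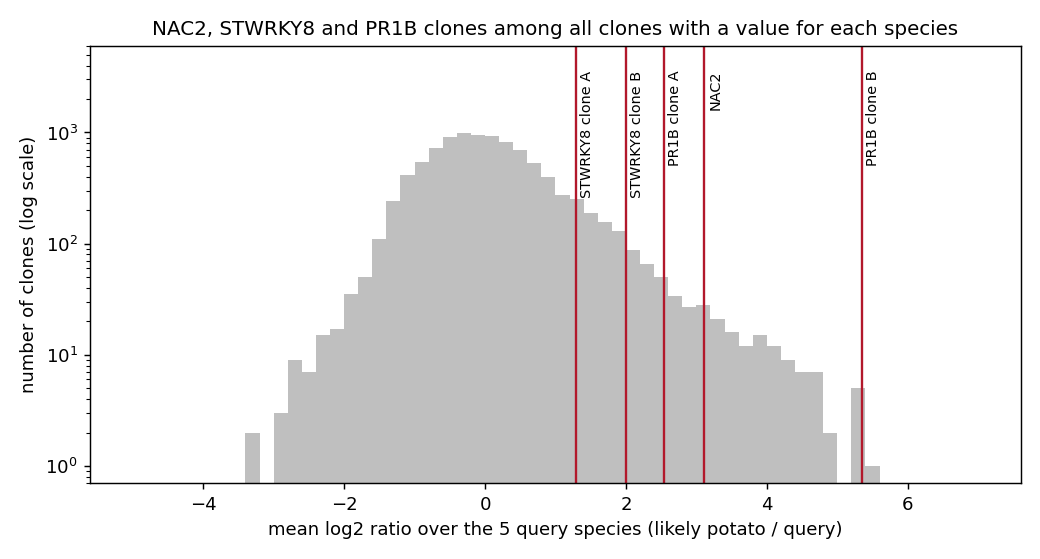
Number of clones (log axis) by mean log2 ratio over the 5 query species (likely potato over query, horizontal axis) for the 9784 clones with a value for each species, with red lines at the NAC2, STWRKY8 and PR1B clones. The lines run from 1.29 for STWRKY8 clone A to 5.34 for PR1B clone B, above which 3 clones lie.

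The choice of genes was not made on differences among the query species, although these come from the same ratios. Where a clone has all values, potato and the dye are common to its arrays and cancel. Binding to the potato probe does not cancel. By the likely direction, a higher ratio in one query species than in another means less signal from that species relative to potato. STWRKY8 clone A differed among the 5 species (limma F test, adjusted p = 0.0083 over 7823 clones with all values, of which 37.4% were called). PR1B clone A had an adjusted p of 0.0743, STWRKY8 clone B of 0.105 and NAC2 of 0.147, none past 0.05. Single arrays moved these calls: without N. benthamiana replicate 2 NAC2 passed (0.0361), without N. benthamiana replicate 1 STWRKY8 clone B passed (0.0197) and without petunia replicate 1 PR1B clone A passed (0.0373). With the replicate block, which called 68.2% of all clones, STWRKY8 clone B (0.0064) and PR1B clone A (0.0067) passed as well and NAC2 (0.0700) did not. PR1B clone B lacked values and had only 1 array each in tomato, N. benthamiana and petunia. Tomato and petunia kept replicate 2 and N. benthamiana replicate 1, so potato does not cancel fully among them. An F test of this clone cannot fully separate species from potato extract, and its result is not given.

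The call for STWRKY8 clone A rested on a high ratio in tomato and a low one in pepper. The ratio in tomato was higher than in pepper by 1.86 on the log2 scale (SE 0.30, 95% interval 1.19 to 2.54, adjusted p = 0.0043), and by 1.65 and 2.08 within replicates 1 and 2. The share of all clones called for this pair was 17.1%. It was also higher in tomato than in tobacco by 1.52 (interval 0.85 to 2.20, adjusted p = 0.0089, against 23.6% of all clones called) and than in petunia by 1.14 (0.46 to 1.82, adjusted p = 0.0268, 22.5%). The tobacco difference was no longer called without tomato replicate 2 (adjusted p = 0.0736) or tobacco replicate 2 (0.0532). The petunia difference was lost without tomato replicate 1 (0.0513), tomato replicate 2 (0.174), petunia replicate 1 (0.139) or petunia replicate 2 (0.0615). The pepper difference held in every alternative tried. With the block, petunia against pepper (pepper minus petunia -0.73, adjusted p = 0.0466) and N. benthamiana against tobacco (tobacco minus N. benthamiana -0.98, 0.0463) passed as well.

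The ratio was lower in pepper than in N. benthamiana in both clones of STWRKY8. The difference of pepper minus N. benthamiana was -1.32 in clone A (interval -2.00 to -0.65, adjusted p = 0.0196) and -1.29 in clone B (-2.12 to -0.45, adjusted p = 0.0494), where 13.9% of all clones were called. Within replicates it was -1.08 and -1.57 in clone A, and -0.92 and -1.65 in clone B. In clone A the call was lost without pepper replicate 1 (0.108), pepper replicate 2 (0.0677) or N. benthamiana replicate 2 (0.107). The call in clone B was lost in 9 of the 10 fits that left out 1 array, with adjusted p up to 0.229. Its size was the same, -1.29, without any array of another species, but -0.72 without N. benthamiana replicate 2 and -1.85 without N. benthamiana replicate 1. In these last fits N. benthamiana keeps 1 potato extract while pepper keeps both, so potato does not cancel fully. With the block, clone B also had called differences for tomato minus pepper (0.98, adjusted p = 0.0109), pepper minus tobacco (-0.80, 0.0284) and pepper minus petunia (-1.02, 0.0091).

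In the order of log2 ratios for STWRKY8 clone A, tomato (2.30), N. benthamiana (1.76), petunia (1.16), tobacco (0.77) and pepper (0.43), no 2 neighbours differed past the threshold. Clone B placed N. benthamiana (2.47) before petunia (2.20), tomato (2.16), tobacco (1.98) and pepper (1.18). Its neighbours did not pass either, except tobacco and pepper with the block. The interval of tomato minus tobacco was 0.85 to 2.20 in clone A and -0.66 to 1.02 in clone B; the difference between the clones in this respect was not tested.

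PR1B clone A placed tomato last, where STWRKY8 clone A placed it first. The difference of tomato minus N. benthamiana was -1.01 (SE 0.28, interval -1.66 to -0.37, adjusted p = 0.0379, against 18.5% of all clones called), and -1.23 and -0.80 within replicates 1 and 2. The difference of tomato minus pepper, -0.93 (-1.57 to -0.29), had an adjusted p of 0.0525, and 0.0062 with the block. That of tomato minus tobacco, -0.72 (-1.36 to -0.08), had 0.0974, and 0.0177 with the block. The order above tomato was N. benthamiana (2.92), pepper (2.84), tobacco (2.63) and petunia (2.36), with no neighbours past the threshold.

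The tomato call of PR1B clone A was lost under some alternatives, of which some made the difference smaller and others did not. When each array was centred and divided by its own spread, tomato minus N. benthamiana was -0.61 (adjusted p = 0.281). From second spots alone the difference was -0.81, and the call was lost there too. The call was also lost without tomato replicate 1 (0.159), tomato replicate 2 (0.152), N. benthamiana replicate 1 (0.149), N. benthamiana replicate 2 (0.0506) or either pepper array (0.0523 each). The difference itself was -1.01 without tomato replicate 1, -1.02 without tomato replicate 2 and -1.01 without either pepper array, and it ran from -0.81 to -1.22 without an array of N. benthamiana. In PR1B clone B only pepper and tobacco had both arrays, and they differed by -0.54 as pepper minus tobacco (interval -1.28 to 0.19, adjusted p = 0.291).

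Over the 5 clones, 41 pairs of species could be tested and 6 were called, against 13.3% of all tests over all clones and pairs. With the block 14 were called, against 28.5%. Without the block 14 had an unadjusted p below 0.05, a count for which no share over all clones was taken. It is not comparable with the count from the block, which is of adjusted calls. The p-values were adjusted over clones within each pair and not over the 10 pairs.

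**Figure D3:**
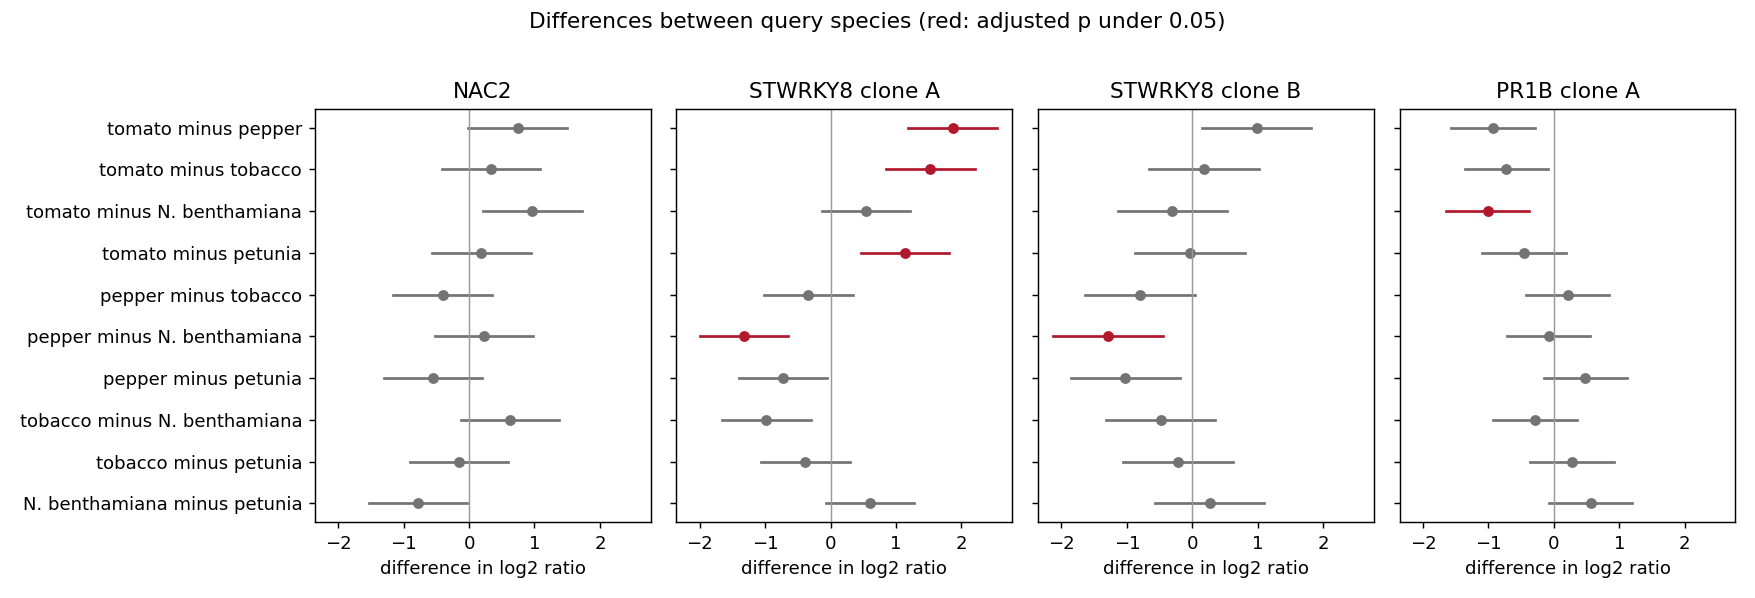
Differences in log2 ratio between query species (horizontal axis) for the 4 clones with values on all arrays. Points are limma estimates and bars their 95% intervals, red where the adjusted p was under 0.05. The 6 red intervals are 4 for STWRKY8 clone A, 1 for STWRKY8 clone B and 1 for PR1B clone A.

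Replicates 1 and 2 stood apart in the same direction in several species. In STWRKY8 clone B replicate 2 was higher than replicate 1 in 5 of 5 species, by 0.03 to 1.13, and in clone A in 4 of 5. In PR1B clone A replicate 2 was lower in 4 of 5 species, with a median of -0.41, and in clone B in 2 of 2. NAC2 had no common direction, with 2 species higher, 2 lower and tomato equal. Replicates differ in the potato extract and in the query extract, and whatever else the arrays of a number share cannot be told apart from the potato extract. The block takes out all that same-numbered arrays share.

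The 2 spots of each clone gave the technical spread. Every clone value of the 3 genes came from 2 spots. For NAC2 the spots differed by at most 0.26, with a median of 0.15. For STWRKY8 the largest gaps were 0.91 in clone A, on tobacco replicate 2 where the spots read 1.0 and 0.09, and 0.70 in clone B. In PR1B clone A the first spot was higher than the second on 10 of 10 arrays, by 0.05 to 1.15 with a median of 0.42, and the tomato and N. benthamiana difference was not called from the second spots alone (adjusted p = 0.141). PR1B clone B had equal spots on 4 arrays, and its largest gap was 1.0, the step between ratios of 0.02 and 0.01.

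**Figure D4:**
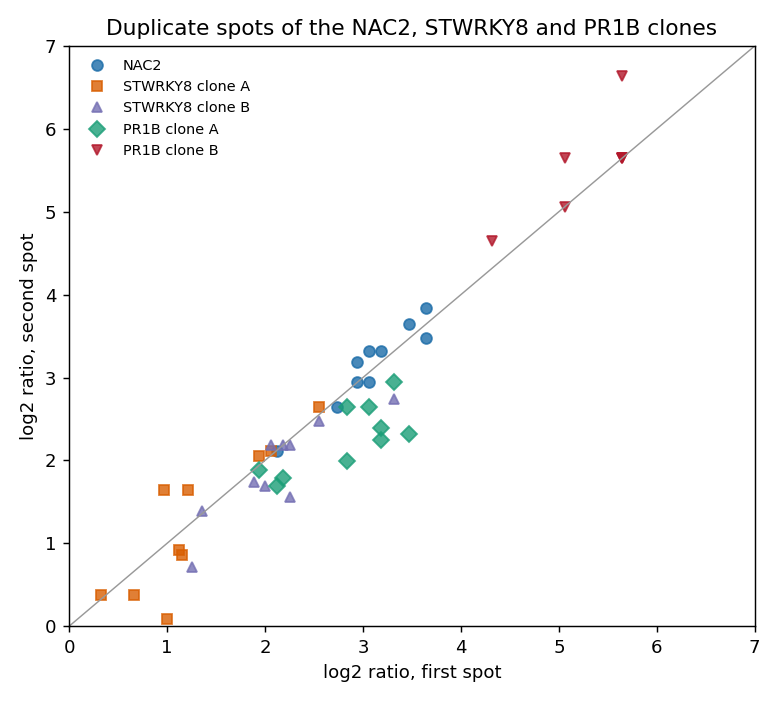
Log2 ratio of the first spot (horizontal axis) against the second (vertical axis) for each NAC2, STWRKY8 and PR1B clone on each array, with the line of equal values. All 10 points of PR1B clone A lie below the line, and the STWRKY8 clone A point at 1.0 and 0.09 is tobacco replicate 2.

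Among themselves the genes did not share 1 pattern over species. Across the 10 arrays PR1B clone A correlated at -0.59 with NAC2, at -0.54 with STWRKY8 clone A and at -0.32 with STWRKY8 clone B, while NAC2 correlated at 0.28 and 0.30 with the STWRKY8 clones. PR1B clones A and B correlated at 0.63 over the 7 arrays they share. These are descriptions of 10 or fewer arrays that share potato extracts.

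By Pearson's r over arrays, the single-symbol clones most like each gene were found among 631 clones with all values. NAC2 was most like LOC102594243 (r = 0.85), LOC102596498 (0.81) and LOC102577768 (0.80). The first of these had negative log2 ratios in each species, from -0.84 in N. benthamiana to -0.50 in tomato and tobacco. STWRKY8 clone A was most like LOC102606273 (0.95) and 2 clones of LOC102587567 (0.85 and 0.84), and LOC102606273 likewise had its highest value in tomato (2.22) and its lowest in pepper (-0.56). STWRKY8 clone B was most like the 2 clones of LOC102605062 (0.92 and 0.90) and LOC102603986 (0.88). PR1B clone A was most like 2 clones of LOC102601057 (0.97 and 0.92) and LOC102597669 (0.94), and the first of these was lowest in tomato (0.16) and highest in N. benthamiana (1.19). PR1B clone B, over 7 arrays and 681 clones, was most like LOC102577552 (0.98), LOC102588954 (0.97) and FLS (0.97). These r values rest on few arrays and on coarse steps, with tomato replicate 2 lowest at 4.48. Each like clone was picked for its high r over these same arrays, so a shared highest or lowest species largely follows from the picking. Likeness concerns the pattern over arrays and not the level, so a like gene can have ratios of the other sign.

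Few other stress and defence genes had a symbol on the array, and they lay on both sides of 0. Lists of pathogenesis-related proteins, defence transcription factors, wound response, immune signalling, oxidative stress enzymes and heat or dehydration proteins matched 13 clones by symbol. Of these, 5 were the clones above and 8 were others, and no further pathogenesis-related, WRKY or NAC gene was among them. The 8 clones gave 33 tests of a species against potato in limma, of which 5 were positive (28.1% over all clones, as above) and 15 negative (28.9%). The 6 of them with a value for each species had a median of -0.62, with 1 positive and 5 negative, against -0.03 over all clones.

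Polyphenol oxidase (PPO), which browns wounded tissue and is induced by jasmonate, had 2 clones. The lower stood at -2.27 in tomato, -0.76 in tobacco, -0.64 in N. benthamiana and 0.08 in pepper, with petunia next to 0, and it differed among species (F test, adjusted p = 0.0027). The other had a mean of -0.50 (F test, adjusted p = 0.0113). By the likely direction PPO was dimmer in potato than in tomato, where NAC2, STWRKY8 and PR1B were brighter in potato. These 2 clones are the whole wound response list, in which 4 of 10 tests were negative, against 28.9% over all clones, and none positive, against 28.1%. Outside the lists, 3 clones of oxylipin genes were noticed among the symbols and are given as values with no test. The lipoxygenase POTLX-3 was positive in each species with a mean of 0.95, and the clones of HPL, a hydroperoxide lyase, had means of -1.08 and -1.46.

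In immune signalling, CDPK2, a calcium-dependent protein kinase, had a mean of -0.53. Of the list's 6 tests 2 were negative, both from CDPK2 and a share near the 28.9% over all clones, and none was positive. Among oxidative stress enzymes, 5 of 17 tests were positive and 9 negative, against the same 28.1% and 28.9%. The catalase gene CAT1, whose enzyme breaks down hydrogen peroxide, gave all 5 positive tests from 2 of its clones and 5 of the negative ones from its remaining clone. Its highest clone stood at 2.59 in N. benthamiana, 1.33 in petunia, 1.17 in tomato, 0.97 in tobacco and 0.57 in pepper (F test, adjusted p = 0.0191), while the clone called negative in each of the 5 species, named after its values were seen, had a mean of -0.97. The lowest of that list was AOX, the alternative oxidase of mitochondria, with a mean of -1.16 (F test, adjusted p = 0.0431). Over the 6 of these clones with all values, 4 were called by the F test, against 37.4% of all clones, and they are from 3 genes.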

How the data were processed

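Leaf RNA of 5 query species (Cy3) and potato (Cy5) was hybridized to 10 potato cDNA arrays. The authors used GenePix to extract signals, flagged spots missing in 1 channel, with many saturated pixels or of small diameter, took the local background off the mean signals and quantile-normalized them in limma (version not given in the sources consulted). The deposited log2 ratios, 1 per spot, have no stated direction. Signals of single channels were not analysed here, so no level or background per channel is given. With 2 arrays per species the precision is low, and a p-value reflects the spread of these arrays alone.

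The 2 spots of each clone were located by the slide layout, which all 905 of 905 spot pairs with a common sequence record obeyed, and averaged; 16.78% of clone values came from 1 spot, but none of those of NAC2, STWRKY8 or PR1B. Gene symbols came from a probe table, in which 815 clones had 1 symbol, 90 several and 14455 none. No column of values was left unmapped.

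Tests used limma 3.58.1 in R 4.3.3 (lmFit on all 10 arrays, 1 coefficient per species, eBayes, Benjamini-Hochberg adjustment over all clones tested, threshold 0.05). Species pairs were tested over clones with values on both arrays of both species. The replicate numbers pair the arrays, since the labels give 1 potato extract per number. Over 7823 clones, same-numbered arrays deviated together, with correlations of 0.29 to 0.68 in the 10 pairs of species. The fits were tested on simulated data. Named were all clones of the 3 genes, the 3 single-symbol clones most correlated with each, and the highest and lowest clone of each related list. The genes and lists were chosen with earlier results of these data known. Alternatives were the block, centring and scaling of arrays, first or second spots, values from 2 spots, a limit at log2 4, other treatment of missing values, and leaving out each array. Counts and plots were made in Python 3.11.15 (pandas 2.3.3, matplotlib 3.10.9 and scipy 1.17.1).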

Additional observations from a re-analysis of the deposited data

Results flagged for a closer look

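A difference between query species past the threshold was found for STWRKY8 clone A over all 5 species (limma F test, adjusted p = 0.0083). That test called 37.4% of all clones. Of the 41 pairs of species tested over the 5 clones, 6 were called, a share near the 13.3% of all tests over all clones and pairs. In STWRKY8 clone A these were tomato minus pepper (1.86), tomato minus tobacco (1.52), tomato minus petunia (1.14) and pepper minus N. benthamiana (-1.32), on the log2 scale. In STWRKY8 clone B it was pepper minus N. benthamiana (-1.29). In PR1B clone A it was tomato minus N. benthamiana (-1.01), and both tomato arrays lay below both N. benthamiana arrays. Each of the 6 had the same sign within both replicates, which selection on the mean of both replicates favours. The part of potato-probe binding in them was not tested.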

How the results depend on the processing

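Without the block, 2923 clones were called by the F test, 11646 tests over all pairs of species and clones were called, and 6 of those were on NAC2, STWRKY8 and PR1B. With the replicate block these counts were 5332, 24894 and 14. With values from 2 spots only the F test called 1783 of 4357 clones. From second spots alone 3 of the 41 pairs were called, against 8878 of 72114 tests over all clones and pairs. Leaving out 1 array gave 1434 to 3142 clones for the F test, 5185 to 11670 for all pairs and 2 to 8 for the 3 genes' pairs. In these fits the remaining array of a species is assumed to vary like the others. Set against a species with both arrays, it carries 1 potato extract only, so potato does not cancel fully. Counts against potato (26701) stayed within 21926 to 27390. No value reversed. The F test of STWRKY8 clone A was called under all 18 alternatives (adjusted p 0.00064 to 0.0390). Scaling the arrays called NAC2 (0.0278) and STWRKY8 clone B (0.0360), and first spots alone called PR1B clone A (0.0167). The 6 called differences kept their side of the threshold in 37 fits and lost it in 5 among the alternatives that kept all arrays, and in 36 against 24 among those that left 1 out. Pepper minus N. benthamiana in STWRKY8 clone B was also lost from second spots (0.120) and with values limited to 4 (0.0509), and tomato minus petunia in clone A from second spots (0.0565). The cause was not tested.

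The coarse steps of small ratios limit PR1B clone B most, with 3 of its 10 arrays missing.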
